A study of Mus musculus with 13 samples.

Results

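The interferon response genes described here are 34 genes that are switched on by interferons or that carry the interferon signal to the nucleus, out of 40787 genes counted in sciatic nerve. They were listed by name, as known interferon-stimulated genes and their transcription factors, with earlier results of these data known. All 34 were matched to a counted gene, and 28 reached the count minimum (at least 50 counts in at least 2 libraries) in at least 1 comparison. The other 6 members, Oas3, Mx1, Mx2, Dhx58, Usp18 and Zbp1, stayed under that minimum in every comparison and were tested only in fits without it.

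Bulk RNA sequencing was performed on whole sciatic nerve of C57BL/6 mice 5 days post crush (dpc). RaptorKO mice carried floxed Rptor alleles and a tamoxifen-inducible Cre (CreERT2) driven in Schwann cells (SCs), so that Raptor, a subunit of the kinase complex mTORC1, was deleted in adult SCs but not by design in the other cells of the nerve. Controls were homozygous for the floxed alleles and lacked Cre. All mice, controls included, received tamoxifen at 2 months of age, and 1 sciatic nerve was crushed 2 months later. The part of the nerve distal to the crush ("injured") was compared with the uninjured nerve of the other side ("contralateral"), with the epineurium removed. There were 3 control injured, 3 RaptorKO injured, 3 control contralateral and 4 RaptorKO contralateral libraries.

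Interferons are secreted proteins that cells release when they sense viral or misplaced nucleic acid. Type I interferons act through the receptor chains Ifnar1 and Ifnar2, and the kinases Jak1 and Tyk2, to assemble a complex that holds Stat2 and Irf9 and binds interferon-stimulated response elements (ISREs) in promoters. Interferon gamma acts through its own receptor and Jak1 and Jak2 on gamma-activated sites (GAS). Macrophages, endothelial cells and glia can all carry out this response, and many of its genes have a basal level without infection.

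Promoter stretches of 6 members that changed with injury are shown first, picked because they hold the elements through which the response is known to act. A RefSeq promoter window (build GRCm38.p6, 250 bases before to 50 after the start of the gene) was at hand for 25 of the 34 members, and none for Parp14, Oas2 or Rtp4. The ISRE core was searched as TTTCNNTTTC on both strands, with overlapping matches counted. It was found in 14 of the 25 windows (56%), against 3.99% of 27025 genes with a window. The GAS letters TTCNNNGAA, which read the same on both strands, were found in 8 of the 25 (32%), against 9.55% of all genes. Below are 5 genes with an ISRE core and 1 with GAS, written 5′ to 3′ in the direction of the gene, with every match to the letters named in capitals; a match on the other strand shows as its reverse complement. Ifit1, Ifit3, Isg15 and Rsad2 fell with injury, whereas Oas1a and Irf8 rose.
Ifit1, chr19:34640765-34640833, plus strand, ISRE core: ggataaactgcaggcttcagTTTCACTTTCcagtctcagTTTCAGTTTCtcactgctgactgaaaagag
Ifit3, chr19:34583353-34583436, plus strand, ISRE core: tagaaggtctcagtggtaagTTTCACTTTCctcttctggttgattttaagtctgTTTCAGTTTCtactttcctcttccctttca
Isg15, chr4:156200855-156200916, minus strand, ISRE core: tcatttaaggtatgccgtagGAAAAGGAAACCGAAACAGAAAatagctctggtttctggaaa
Rsad2, chr12:26456543-26456592, minus strand, ISRE core: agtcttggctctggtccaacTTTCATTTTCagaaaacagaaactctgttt
Oas1a, chr5:120907526-120907565, minus strand, ISRE core: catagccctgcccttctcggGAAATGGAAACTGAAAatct
Irf8, chr8:120736167-120736233, plus strand, GAS: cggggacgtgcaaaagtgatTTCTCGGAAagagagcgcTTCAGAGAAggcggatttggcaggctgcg

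Counted from 0 at the RefSeq start base, the ISRE cores of Ifit1 began at positions -104 and -85, and those of Ifit3 at -156 and -122. Isg15 held 3 overlapping cores, the first from position -78, and Rsad2 held 1 from position -120. Of the 13 members with a window that were lower in injured than contralateral control nerves, 8 held an ISRE core and 2 held GAS (Gbp7 and Ifi35). Of the 4 that were higher, 2 did (Oas1a and Bst2), and 3 held GAS (Irf8, Oas1a and Bst2). Of the 6 tested members with a window that were not called, 3 held an ISRE core and 3 held GAS. Both motifs were thus present in windows of genes that moved in opposite directions. Irf7, Irf9, Oasl2, Ifi44, Xaf1, Cmpk2 and Trim25 had a window with neither set of letters, and of these Cmpk2, Irf7 and Oasl2 fell more than Isg15 in control nerves.

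**Figure D1:**
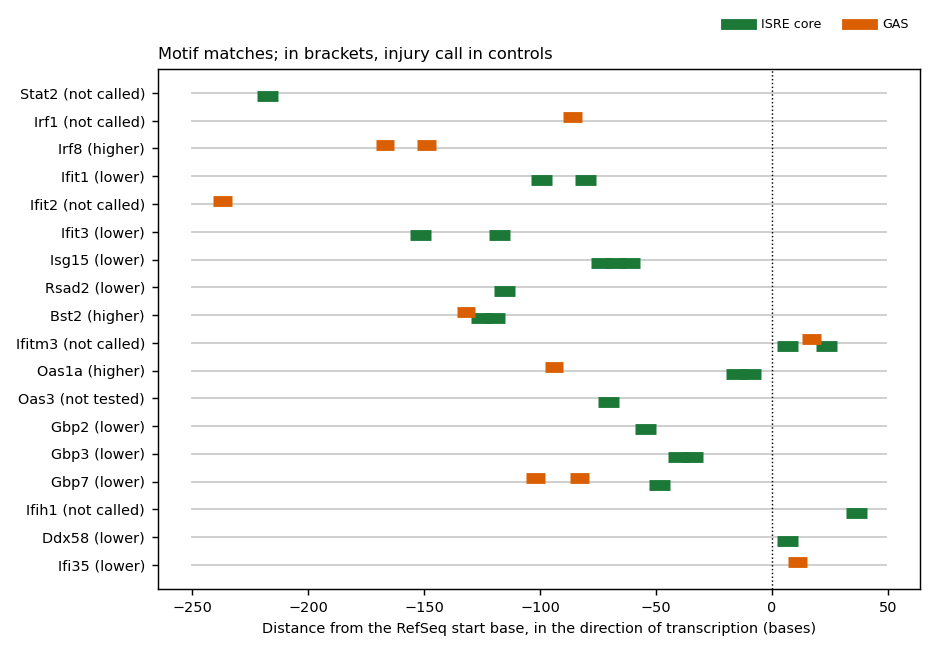
Matches to the ISRE core (green) and GAS (orange) in the promoter windows of the 18 members that hold either, by distance in bases from the RefSeq start base (dotted line); grey lines are the windows. The words in brackets give the injury call in control nerves, and ISRE cores stand in windows of members called lower (Ifit1, Ifit3, Isg15, Rsad2) as well as higher (Oas1a, Bst2).

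Library totals ran from 8200458 to 13581775 counts. Rptor was lower in RaptorKO than control nerves on both sides (log2 fold change -0.998 ± 0.12, SE, in contralateral and -0.68 ± 0.15 in injured nerves). Both libraries of control 3 carried 14462 and 15017 counts of Xist and the other 11 at most 17, so that these libraries differed in sex from the rest. In bulk RNA, fewer cells of a type and less RNA per cell cannot be told apart. Levels are given below as counts in a library of 1000000 (CPM) after scaling by TMM, a normalization that assumes most genes are unchanged. A member was called higher or lower at a Benjamini-Hochberg adjusted p below 0.05 in edgeR's quasi-likelihood test together with a fold change over 1.2.

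Nerve injury moved the interferon response genes in both directions, with more members falling than rising. In control nerves 14 of 27 tested members were lower after crush and 6 were higher, against 32.9% of all 12430 tested genes called lower and 32.4% called higher. The median log2 fold change was -0.60 for the members and -0.0015 for all tested genes. In RaptorKO nerves 10 of 27 were lower and 5 were higher, against 28.5% and 30.5% of 12515 tested genes, with a median of -0.16 against 0.03. All 10 members lower in RaptorKO were also lower in controls. Markers of other cell types moved with injury too. The summed level of 8 SC markers went from 66400-73500 to 3610-4330 CPM in controls and from 58200-70400 to 2640-3180 CPM in RaptorKO, and that of 8 endothelial markers from 492-535 to 268-411 CPM in controls and from 501-597 to 494-772 CPM in RaptorKO; their part in the values of the members was not tested.

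**Figure D2:**
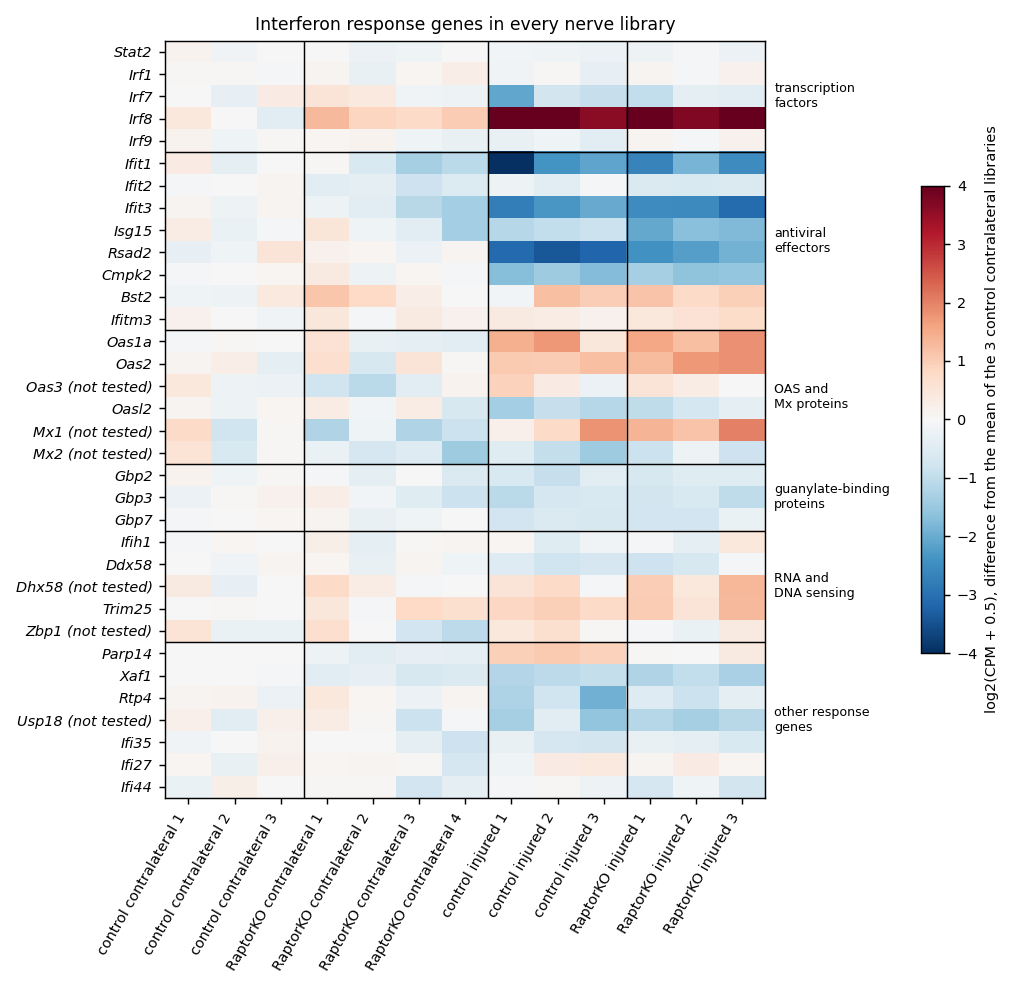
Level of the 34 members (rows, by role) in each of the 13 libraries (columns, by group), as the difference in log2(CPM + 0.5) from the mean of the 3 control contralateral libraries, with red higher and blue lower. Irf8 is red and Ifit1, Ifit3, Rsad2 and Cmpk2 are blue in all 6 injured libraries, and Parp14 is red in the 3 control injured ones.

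The deepest falls were among the antiviral effectors, of which 5 of 8 were lower in injured nerves of each genotype (Ifit1, Ifit3, Isg15, Rsad2 and Cmpk2). Rsad2 encodes viperin, an enzyme that makes a chain-terminating nucleotide from CTP. Its level was 12.9, 14.4 and 23.3 CPM in control contralateral nerves and 18.6, 17.2, 13.8 and 17.7 CPM in RaptorKO contralateral nerves. Control injured nerves held 1.46, 1.10 and 1.37 CPM, and RaptorKO injured nerves 2.67, 3.15 and 4.03 CPM. No injured library reached the level of any contralateral one. The RaptorKO injured libraries (30, 40 and 44 counts) were all above the control injured ones (16, 12 and 14 counts). These counts were under the minimum, so the reported fit did not test Rsad2 between genotypes within injured nerves. Without the count filter it was tested there and not called. The log2 fold change with injury was -3.70 ± 0.31 (SE) in controls and -2.36 ± 0.21 in RaptorKO (edgeR adjusted p = 6.07e-07 and 4.83e-06). Cmpk2, the neighbour of Rsad2 on chromosome 12 and a mitochondrial nucleotide kinase, was at 10.2, 10.4 and 11.2 CPM in control contralateral and 2.92, 3.67 and 2.84 CPM in control injured nerves. RaptorKO nerves gave 13.8, 9.23, 11.2 and 10.2 CPM on the contralateral and 3.91, 3.15 and 3.29 CPM on the injured side. Groups did not overlap, and the log2 fold changes were -1.78 ± 0.25 and -1.69 ± 0.23 (edgeR adjusted p = 4.82e-05 and 1.19e-04).

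Among the IFIT proteins, which bind foreign RNA and stop its translation, Ifit1 and Ifit3 fell and Ifit2 did not pass the fold threshold (log2 fold change -0.26 in controls, or -0.27 and called lower with same-numbered nerves as a replicate block, edgeR adjusted p = 0.0476). Ifit1 was at 22.02, 13.5 and 17.8 CPM in control contralateral nerves and at 0.183, 2.94 and 3.62 CPM in control injured nerves. The lowest of these, control injured 1, held 2 counts, against 32 and 37 in the other control injured libraries. In RaptorKO nerves Ifit1 was at 18.0, 11.2, 6.68 and 7.99 CPM on the contralateral side and at 2.31, 4.48 and 2.65 CPM on the injured side. The groups did not overlap in either genotype, and the log2 fold change was -3.01 ± 0.53 in controls and -1.80 ± 0.39 in RaptorKO (edgeR adjusted p = 3.24e-04 and 0.00249). Ifit3 was at 75.4, 59.7 and 74.5 CPM in control contralateral nerves and at 9.68, 13.6 and 16.7 CPM after injury. In RaptorKO it was at 60.6, 51.4, 32.1 and 27.1 CPM on the contralateral and 11.7, 11.6 and 7.87 CPM on the injured side. The log2 fold changes were -2.42 ± 0.18 and -2.05 ± 0.29 (edgeR adjusted p = 2.58e-07 and 1.38e-04). Ifit3b, a near copy of Ifit3 with which it can share reads, followed the same course, with mean levels of 22.7 CPM in control contralateral and 3.18 CPM in control injured nerves, so that the split between the pair is uncertain while both were lower. Isg15, a ubiquitin-like modifier, fell from 7.17 ± 1.51 (SD, n = 3) to 3.31 ± 0.40 CPM (n = 3) in controls and from 5.98 ± 3.19 (n = 4) to 1.65 ± 0.29 CPM (n = 3) in RaptorKO. Its RaptorKO injured libraries (15, 24 and 19 counts) all lay below the control injured ones (32, 36 and 38 counts), the opposite direction to Rsad2. These counts too were under the minimum, and without the count filter Isg15 was not called between genotypes in injured nerves.

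**Figure D3:**
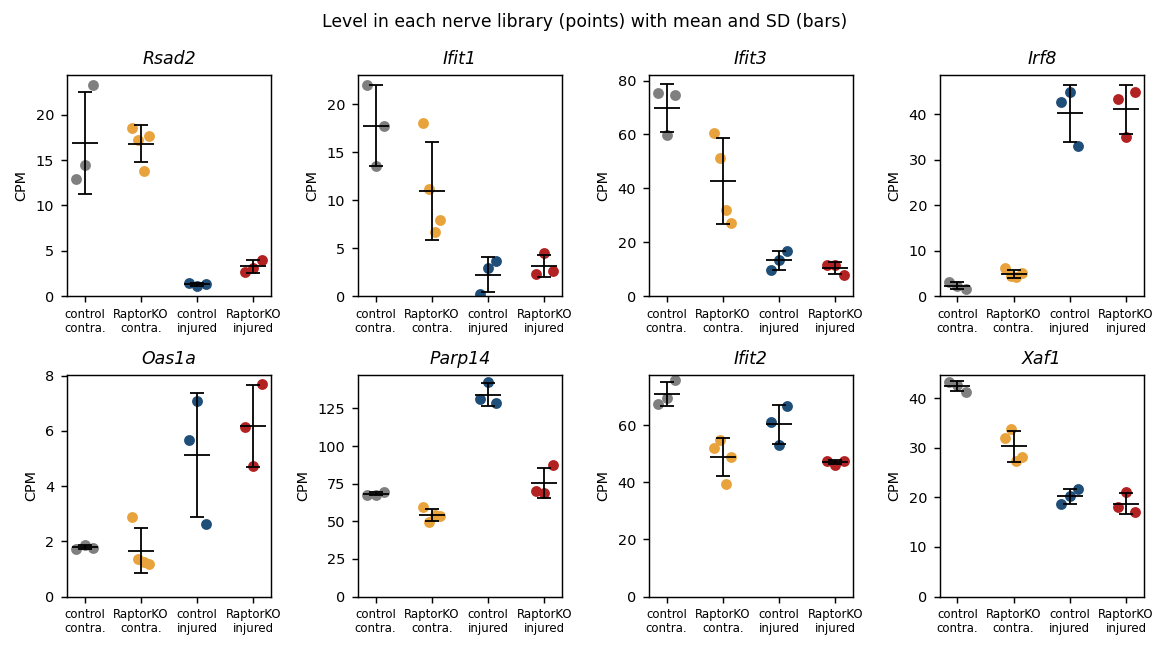
Level of 8 members in each of the 13 libraries, in CPM on a linear axis that starts at 0, by group; points are libraries and bars are the mean with SD (n = 3, or 4 for RaptorKO contralateral). Rsad2, Ifit1 and Ifit3 are low in every injured library, Irf8 and Parp14 are highest after injury, and Parp14, Ifit2 and Xaf1 are lower in RaptorKO than control contralateral nerves.

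The transcription factors did not move as 1 group. Irf8, a factor of macrophages, dendritic cells and B cells, was at 3.18, 2.20 and 1.56 CPM in control contralateral nerves and at 42.7, 44.9 and 33.1 CPM in control injured nerves. RaptorKO nerves held 6.19, 4.50, 4.20 and 5.03 CPM on the contralateral and 43.5, 35.0 and 45.0 CPM on the injured side. It had the largest rise of all tested members in both genotypes, with log2 fold changes of 4.08 ± 0.23 and 3.05 ± 0.17 (edgeR adjusted p = 1.96e-08 and 1.70e-07). Beside this, all 12 macrophage markers rose with injury in both genotypes, and their summed level went from 212-235 to 3440-4310 CPM in controls and from 344-423 to 2440-4840 CPM in RaptorKO; the part of these cells in the values of any member was not tested. Irf7, which amplifies type I interferon production, fell from 11.5 ± 2.65 to 4.86 ± 2.27 CPM in controls and from 12.7 ± 3.36 to 7.38 ± 1.70 CPM in RaptorKO (log2 fold change -1.26 ± 0.35 and -0.79 ± 0.25). Irf7 exons overlap those of Phrf1 on the opposite strand, and reads of the pair cannot be told apart if the counting ignored strand. Stat2, Irf9 and Irf1, the remaining members of this role, were not called in either genotype, with log2 fold changes between -0.33 and 0.12.

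In the family of oligoadenylate synthetases, which make the messenger that activates RNase L, the members differed in direction. Oas1a was at 1.73, 1.87 and 1.76 CPM in control contralateral and at 5.66, 7.06 and 2.64 CPM in control injured nerves. In RaptorKO it was at 2.88, 1.37, 1.24 and 1.16 CPM against 6.13, 4.72 and 7.68 CPM. Every injured library of a genotype was above every contralateral one, and the log2 fold change was 1.49 ± 0.41 in controls and 1.88 ± 0.40 in RaptorKO (edgeR adjusted p = 0.00704 and 0.00204). Oas2 was at 4.09, 4.56 and 2.73 CPM in control contralateral nerves and 8.22, 8.07 and 9.20 CPM in control injured nerves, and in RaptorKO at 6.30, 2.21, 5.53 and 3.87 CPM against 9.69, 13.4 and 14.4 CPM. It rose by 1.13 ± 0.27 and 1.49 ± 0.33 on the log2 scale (edgeR adjusted p = 0.00333 and 0.00264). By contrast Oasl2, a synthetase-like protein, fell in both genotypes (log2 fold change -1.19 ± 0.17 and -0.71 ± 0.24, edgeR adjusted p = 5.10e-05 and 0.0249). Reads shared between members of the Oas1 cluster may be split by the counting, so the level of Oas1a is uncertain. Of the members under the count minimum in every comparison, Mx1 held 9, 16 and 36 counts in control injured and 28, 26 and 46 in RaptorKO injured nerves. It held 16, 2 and 7 counts in control contralateral and 0, 7, 0 and 1 in RaptorKO contralateral nerves. Mx2, Oas3, Usp18, Dhx58 and Zbp1 held at most 60 counts in any library.

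All 3 guanylate-binding proteins (Gbp2, Gbp3 and Gbp7), GTPases that attack membranes of intracellular microbes, fell in control nerves by 0.69 to 0.83 on the log2 scale, and Gbp7 fell in RaptorKO nerves (log2 fold change -0.52 ± 0.17). Gbp2 and Gbp3 gave -0.31 ± 0.16 and -0.57 ± 0.25 in RaptorKO and were not called, but both were called lower with the replicate block (-0.40 ± 0.15 and -0.71 ± 0.16, edgeR adjusted p = 0.0459 and 0.00445). These genes are paralogs that lie side by side on chromosome 3, and reads they share may be split by the counting.

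Parp14, an ADP-ribosyltransferase, was 1 of the 4 members called higher in both genotypes. Its level was 67.7, 67.6 and 69.5 CPM in control contralateral nerves and 131, 143 and 129 CPM in control injured nerves. In RaptorKO it was 59.3, 49.4, 54.2 and 53.6 CPM against 70.0, 69.1 and 87.2 CPM. The groups did not overlap in either genotype, and the log2 fold changes were 0.95 ± 0.08 and 0.47 ± 0.12 (edgeR adjusted p = 7.43e-07 and 0.00484). Trim25, the ubiquitin ligase that helps activate RIG-I, was at 18.6, 19.4 and 18.4 CPM in control contralateral and 33.8, 36.8 and 32.3 CPM in control injured nerves. In RaptorKO it was at 25.7, 17.7, 32.7 and 29.9 CPM against 38.1, 27.4 and 46.5 CPM, and these groups overlapped. It rose in controls (log2 fold change 0.84 ± 0.13, edgeR adjusted p = 9.53e-05) and was not called in RaptorKO (0.49 ± 0.23, edgeR adjusted p = 0.084). Each RaptorKO injured library was above the contralateral one of its number, and with the replicate block Trim25 was called higher there (0.56 ± 0.13, edgeR adjusted p = 0.0045). Bst2 (tetherin), which holds budding virions at the cell surface, was called higher in controls (0.77 ± 0.30, edgeR adjusted p = 0.0384), but control injured 1 lay at 13.3 CPM within the contralateral range, and the call was lost without any 1 of control injured 2 and 3 and control contralateral 1 and 2 (edgeR adjusted p up to 0.164).

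Xaf1, a pro-apoptotic interferon target, was at 43.2, 42.8 and 41.4 CPM in control contralateral and 18.7, 20.3 and 21.6 CPM in control injured nerves. RaptorKO nerves gave 31.9, 33.8, 27.3 and 28.2 CPM on the contralateral and 18.1, 21.1 and 17.1 CPM on the injured side. The injured libraries of the genotypes overlapped, whereas their contralateral libraries did not (log2 fold change -1.10 ± 0.12 and -0.70 ± 0.14, edgeR adjusted p = 8.77e-06 and 0.00152). Rtp4, a receptor-transporting protein, fell from 11.1, 11.4 and 8.69 CPM to 4.11, 5.78 and 2.35 CPM in controls (-1.37 ± 0.31, edgeR adjusted p = 0.00207). In RaptorKO it went from 13.98, 10.99, 8.77 and 11.1 CPM to 7.11, 5.43 and 7.96 CPM (-0.72 ± 0.23, edgeR adjusted p = 0.0186). The RNA sensor Ddx58 (RIG-I) fell in controls (-0.69 ± 0.14) and in RaptorKO was called lower only with the replicate block (-0.49 ± 0.17, edgeR adjusted p = 0.0353, against -0.44 ± 0.19 and 0.0749 without it) or under 2 other alternatives. Ifi35 fell in controls (-0.60 ± 0.18) and was not called in RaptorKO (-0.16 ± 0.21). The sensor Ifih1 (MDA5) and Ifi27 were not called in either genotype. Ifitm3, which blocks viral fusion, lay at the threshold in both genotypes, at 0.33 ± 0.13 in RaptorKO and 0.24 ± 0.10 in controls (edgeR adjusted p = 0.0472 and 0.0547). Its call in RaptorKO was lost under 8 of 14 alternatives, among them the replicate block (edgeR adjusted p = 0.0637), DESeq2 and leaving out any 1 of RaptorKO injured 2 and 3 and RaptorKO contralateral 2, 3 and 4 (adjusted p up to 0.165), and in controls it was called higher under 4 of 14.

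**Figure D4:**
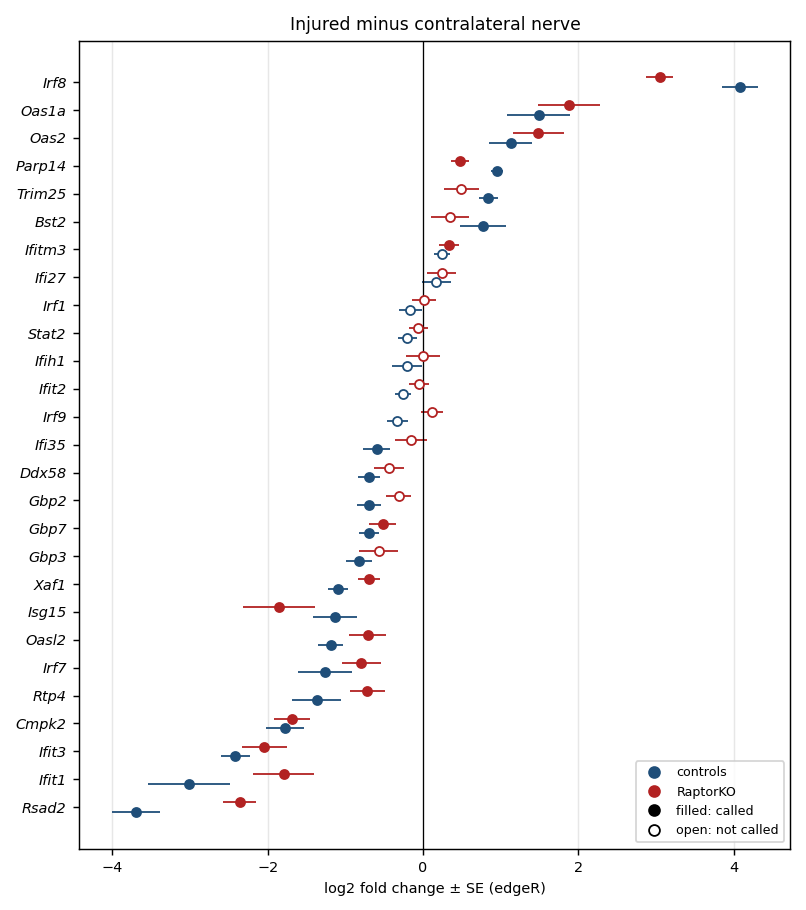
Log2 fold change of injured minus contralateral nerves with its SE (bars) for the tested members, in controls (blue) and RaptorKO (red); filled points were called. Rsad2 (-3.70 in controls) and Irf8 (4.08 in controls) stand at the ends, and 10 members were called lower and 4 higher in both genotypes.

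The number of members called lower after injury in RaptorKO nerves dropped from 10 to 6 without RaptorKO contralateral 1, and to 6, with 6 called higher, when libraries were scaled by their totals alone. Irf7, Oasl2, Gbp7 and Rtp4 lost the call in both cases, and each also without at least 1 other RaptorKO library. Over all tested genes the count called lower was 3561 in the reported fit, 3253 without RaptorKO contralateral 1 and 2835 with totals alone. The count called higher over all tested genes was 3811, 3485 and 4708. With the replicate block 13 members were lower and 5 higher in RaptorKO, and 15 and 6 in controls. Over all tested genes the block gave 3569 lower and 3698 higher in RaptorKO, and 4051 and 3975 in controls. Scaling by totals moved the median log2 fold change of all tested genes to 0.20 in controls and 0.19 in RaptorKO, beside -0.40 and 0.0011 for the members. Without both libraries of control 3, chosen after seeing the data, 6 members were called higher and 13 lower in controls. Of all tested genes 3731 were then called higher and 3688 lower.

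Most of the tested interferon response genes, like most of all tested genes, were not called between genotypes in injured nerves. Of 23 tested members 0 were higher and 1, Parp14, was lower, against 4.09% of all 12040 tested genes called higher and 4.44% called lower. Without a correction for multiple testing, 6 members had p below 0.05, against 2594 of the 12040 tested genes. DESeq2 and edgeR's exact test called 0 members higher, against 672 and 667 of all tested genes. The 3 RaptorKO injured libraries held 70.0, 69.1 and 87.2 CPM of Parp14 and the 3 control injured ones 131, 143 and 129 CPM, without overlap (log2 fold change -0.82 ± 0.12, edgeR adjusted p = 0.00192). Parp14 was called lower under all 13 alternatives tried, with the edgeR and DESeq2 adjusted p between 1.50e-07 and 0.0169. Exons of Parp14 overlap those of Gm49730 on the same strand, and reads they share may be split by the counting. The same holds for Irf9 with Rnf31, Rtp4 with Gm45338 and Gbp7 with Gm43802. The members' median log2 fold change was 0.16, against 0.0014 for all tested genes, and 18 of 23 lay above 0. Rtp4 (0.75 ± 0.34), Irf7 (0.62 ± 0.38) and Oas2 (0.57 ± 0.22) had the largest positive values, and none passed the test (edgeR adjusted p = 0.232, 0.391 and 0.147). Ifit1, Isg15, Rsad2, Cmpk2 and Ifi44 fell under the count minimum in injured nerves and were not tested between genotypes there in the reported fit. Without the count filter all 34 members were tested, with 0 called higher and 1, Parp14, called lower. Of all 21735 genes tested in that fit, 856 were called higher and 700 lower.

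In contralateral nerves 3 of 27 tested members were lower in RaptorKO and 0 were higher, against 5.68% and 4.49% of 11878 tested genes. Unadjusted, 7 members had p below 0.05, against 2955 of the 11878 tested genes. DESeq2 called 1 member higher and 4 lower, against 720 and 870 of all tested genes. The exact test of edgeR called 1 and 2 members, against 570 and 702 of all tested genes. Ifit2 was at 67.6, 69.4 and 75.8 CPM in controls and at 51.9, 54.9, 39.6 and 48.7 CPM in RaptorKO (log2 fold change -0.52 ± 0.12, edgeR adjusted p = 0.0193). Control injured nerves held 61.1, 53.0 and 66.8 CPM of it, and RaptorKO injured nerves 47.6, 46.2 and 47.6 CPM, again without overlap, and it was not called (-0.34 ± 0.12, edgeR adjusted p = 0.113). Xaf1, with the contralateral levels given above, was lower by 0.47 ± 0.11 on the log2 scale (edgeR adjusted p = 0.0236) and Parp14 by 0.32 ± 0.08 (edgeR adjusted p = 0.0398). Every RaptorKO contralateral library was below every control contralateral one for these 3 genes. None of the 3 calls held when any 1 of the 3 control contralateral libraries was left out, where the count of members called lower was 0 each time. Over all tested genes the count called lower also dropped in these fits, from 675 to 333, 278 and 370. The call of Parp14 was also lost without any 1 RaptorKO library and under 4 other settings, so that it rested on a value close to the threshold.

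Ifit1 and Ifit3 pointed the same way as Ifit2 in contralateral nerves without passing the test (log2 fold change -0.67 ± 0.30 and -0.68 ± 0.24, edgeR adjusted p = 0.201 and 0.0991). Both were called lower without RaptorKO contralateral 1 (edgeR adjusted p = 0.0449 and 0.0447), and Ifit3 also by DESeq2, without the count filter and with the replicate number as a block (adjusted p = 0.0199, 0.0279 and 0.0407). Between genotypes that block joins different mice that only share a number. For Ifit3, RaptorKO contralateral 2, 3 and 4 (51.4, 32.1 and 27.1 CPM) lay below all control libraries, whereas RaptorKO contralateral 1, at 60.6 CPM, lay within their range. Irf8 had the largest positive value, 1.11 ± 0.33, and the 4 RaptorKO libraries lay between 4.20 and 6.19 CPM, above the control range of 1.56 to 3.18 CPM (edgeR adjusted p = 0.0591, not called). DESeq2, edgeR's exact test and a fit of all 13 libraries called it higher (adjusted p = 0.022, 0.016 and 0.00818). Beside this, 7 of 10 tested macrophage markers were higher in RaptorKO contralateral nerves and their sums did not overlap (344-423 against 212-235 CPM), and the SC markers S100b and Erbb3 were lower; their part in the values of the members was not tested. The members' median was -0.04, against 0.01 for all tested genes.

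**Figure D5:**
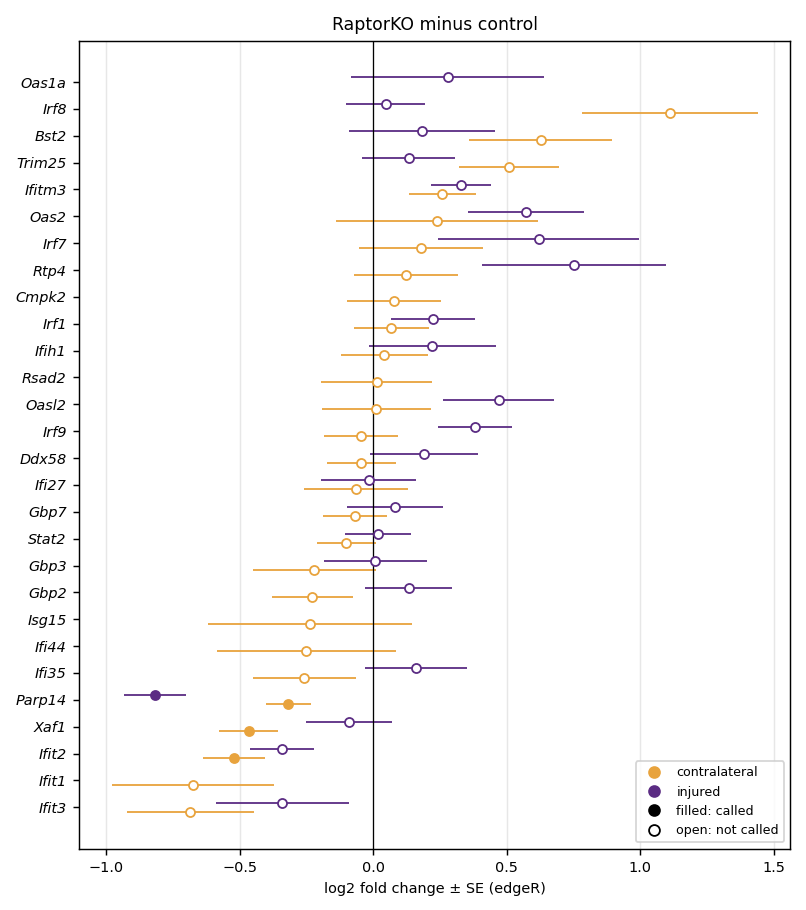
Log2 fold change of RaptorKO minus control with its SE (bars) for the tested members, in contralateral (orange) and injured (purple) nerves; filled points were called. Parp14 is called lower on both sides (-0.32 and -0.82), Ifit2 and Xaf1 on the contralateral side, and no member is called higher.

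Whether the genotype effect differed between sides was tested directly as an interaction. Of 28 tested members 0 passed, against 1.07% of 12851 genes with a more positive and 1.41% with a more negative genotype effect in injured nerves. Unadjusted, 5 members had p below 0.05, against 1827 of the 12851 tested genes. DESeq2 called 1 member more positive (Rsad2) and 2 more negative (Parp14 and Irf8), against 245 and 353 of all tested genes. The log2 difference of genotype effects was 1.32 ± 0.37 for Rsad2, -0.50 ± 0.14 for Parp14 and -1.06 ± 0.30 for Irf8 (edgeR adjusted p = 0.0755, 0.0777 and 0.0886). For Rsad2 it came from means of 1.31 CPM in control and 3.28 CPM in RaptorKO injured nerves (12 to 16 and 30 to 44 counts). Both contralateral means were close to each other (16.9 and 16.8 CPM). Parp14 passed without RaptorKO injured 3 (edgeR adjusted p = 0.021), and Irf8 without control contralateral 1 (edgeR adjusted p = 0.0498).

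Compared per length of exon, Ifitm3 had the highest level of all members in every group (96.7 CPM per kb in control contralateral and 116 CPM per kb in control injured nerves). In control contralateral nerves Ifit3 came next at 40.0 CPM per kb, followed by Ifit2 at 18.1, with Ifi27 and Bst2 both at 16.3. After injury in controls Bst2 (28.2), Ifi27 (18.6), Ifit2 (15.4) and Parp14 (14.4 CPM per kb) followed Ifitm3, and Ifit3 was no longer among the first 5.

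The rest of the pathway was described from lists of ligands, receptors, sensors, inhibitors and further targets. All 10 interferon ligand genes listed (Ifnb1, 4 Ifna genes, Ifnk, Ifne, Ifng, Ifnl2 and Ifnl3) were listed at 0 counts in all 13 libraries, which over their summed total of 141238768 counts allows up to 0.0212 CPM each (3 counts, counting error only). Of 10 tested receptor chains, kinases and their transcription factors, 7 were higher after injury in each genotype, and 2 in controls and 1 in RaptorKO were lower. The receptor chains Ifnar1 (0.53 in controls, 0.69 in RaptorKO) and Ifnar2 (0.71 and 1.02) rose on the log2 scale, and the kinase Jak2 fell in controls (-0.83). Of 16 nucleic acid sensors and adaptors, 13 were higher after injury in each genotype and 0 lower, with median log2 fold changes of 2.13 and 1.91. Tlr7 and Tlr8, endosomal sensors of single-stranded RNA that macrophages express, rose by 3.73 and 3.60 in controls; these receptor and sensor genes were picked after their values were seen. Among 11 tested inhibitors 6 rose and 2 fell in controls. Among 55 further interferon-stimulated genes 20 rose and 14 fell in controls, where 32.4% of all tested genes were called higher and 32.9% lower. In RaptorKO 19 of 54 rose and 9 fell, against 30.5% and 28.5% of all tested genes.

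Between genotypes, the further interferon-stimulated genes gave 4 higher and 1 lower of 52 tested in injured nerves, against 4.09% and 4.44% of all tested genes. Gbp9, a guanylate-binding protein, was at 19.0, 19.2 and 16.7 CPM in RaptorKO injured and 7.40, 9.08 and 9.40 CPM in control injured nerves (log2 fold change 1.10 ± 0.19, edgeR adjusted p = 0.00482). Iigp1, an immunity-related GTPase, was at 18.7, 25.4 and 23.3 CPM against 6.76, 8.35 and 12.8 CPM (1.29 ± 0.24, edgeR adjusted p = 0.00877), and Gbp5 at 12.3, 13.7 and 13.4 CPM against 5.94, 6.97 and 8.13 CPM (0.92 ± 0.21, edgeR adjusted p = 0.022). Helz2, a helicase and the other gene called higher, was at 31.8, 31.0 and 27.2 CPM against 21.6, 22.2 and 16.7 CPM (0.59 ± 0.16, edgeR adjusted p = 0.0385); it was added after its values were seen, and its call was lost without any 1 control injured library or RaptorKO injured 1 or 2 (edgeR adjusted p up to 0.154). For the GTPases Gbp9, Iigp1 and Gbp5 the RaptorKO injured libraries lay above all control injured ones, whereas the contralateral means were below those of controls for Gbp9 (21.5 against 23.7 CPM) and Gbp5 (17.4 against 22.1 CPM) and above them for Iigp1 (22.1 against 20.4 CPM). The 3 guanylate-binding members, Gbp2, Gbp3 and Gbp7, gave 0.13 ± 0.16, 0.01 ± 0.19 and 0.08 ± 0.18 in injured nerves and were not called. Beside these values, 7 of 8 endothelial markers were higher in RaptorKO injured nerves and their sums did not overlap (494-772 against 268-411 CPM), while 0 of 8 were called in contralateral nerves and 0 of 12 macrophage markers were called in injured nerves; 4 of 5 mast cell, 2 of 5 fibroblast and 3 of 3 tested erythrocyte markers were also higher, and the part of any of these cells in these levels was not tested. The call of Gbp5 was lost without control injured 1 or 2 or RaptorKO injured 1 (edgeR adjusted p up to 0.0795). Slfn9, a Schlafen family gene, was lower (-0.73 ± 0.19, edgeR adjusted p = 0.0379), as was the kinase Ikbke among the sensors and adaptors (-0.58 ± 0.16, edgeR adjusted p = 0.0477), and both calls were lost without any 1 of several libraries.

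In contralateral nerves 3 of 50 tested further genes were higher and 3 lower in RaptorKO, against 4.49% and 5.68% of all tested genes. Ifi30, a lysosomal thiol reductase of antigen-presenting cells, was at 58.9, 52.3, 48.0 and 49.6 CPM against 30.7, 36.8 and 29.4 CPM in controls (0.71 ± 0.12, edgeR adjusted p = 0.00417). Ifit3b was at 15.7, 14.4, 11.6 and 8.76 CPM against 24.3, 21.1 and 22.8 CPM (-0.83 ± 0.18, edgeR adjusted p = 0.0186), the direction of its near copy Ifit3. Herc6, the main ligase that attaches Isg15 to proteins in mice, was lower (-0.79 ± 0.20, edgeR adjusted p = 0.0322), and Ifi204, a DNA-binding protein, higher (0.66 ± 0.15, edgeR adjusted p = 0.023). Jak2 was lower in RaptorKO contralateral nerves, at 62.1, 48.99, 51.5 and 53.0 CPM against 73.9, 88.6 and 81.8 CPM (-0.58 ± 0.10, edgeR adjusted p = 0.00605), under all alternatives tried. The calls of Ifit3b and Ifi204 were lost in the fit of all 13 libraries and without any 1 control contralateral library, and that of Herc6 without control contralateral 1 or 2 or RaptorKO contralateral 3 or 4. Of the other cell types checked, B cells, plasmacytoid dendritic cells and skeletal muscle were near 0: their marker sums stayed at or below 10.6 CPM in every library, and the B cell marker Pax5 was at 0 in all contralateral and all control injured libraries.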

How the data were processed

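Per the paper's methods and the labels, the authors trimmed reads with Trimmomatic and quantified genes on GRCm38 with RSEM 1.2.22. The deposited values are expected counts per gene, not normalized, in 1 table of 13 libraries (8200458 to 13581775 counts each); whether counting used strand is not given in the sources used here. Between 24.9% and 28.0% of nonzero values were not whole, and all were rounded to whole numbers. Of 40787 identifiers, 40550 matched GENCODE M21 (GRCm38), which gave symbols and loci.

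Genes with at least 50 counts in at least 2 libraries of a comparison entered edgeR 4.0.16 (TMM, quasi-likelihood test, Benjamini-Hochberg adjustment, R 4.3.3), with only the libraries compared in each fit and all 13 for the interaction; fold thresholds did not apply to the interaction. The study used edgeR's exact test, which was run as an alternative, with DESeq2 1.42.0, other scalings, no count filter, all libraries in 1 fit, a replicate block and each library left out. Scripts were tested on simulated data. Samples were grouped by their labels. The crush was unilateral and the titles give an injured and a contralateral nerve of a genotype the same number, so same-numbered libraries were read as nerves of 1 mouse, although no source states it for each number. Deviations from the group means correlated between them at 0.0674, 0.129 and 0.305 in controls and -0.0239, 0.211 and 0.168 in RaptorKO; RaptorKO contralateral 4 had no partner. The reported injury fits treat the nerves as independent, and blocked values are given where they change a call. Between genotypes a shared number joins different mice. Promoters are RefSeq windows of 300 bases. Members and lists were chosen with earlier results of these data known. Values per library are given for members called in a genotype comparison and for the 5 called members that rose most and the 5 that fell most after injury in controls; other members are given by fold change, and from each pathway list up to 4 called genes with the smallest p in each genotype comparison. Some genes of the pathway and marker lists are not reported here by name.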

Additional observations from a re-analysis of the deposited data

Results flagged for a closer look

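In the group of 4 RaptorKO contralateral libraries, 1 library stood apart from the other 3 for 2 of the 28 members checked, by a gap to the nearest library above Dixon's 95% critical value; chance flags about 1 in 20 such groups. Oas1a was at 2.88 CPM in RaptorKO contralateral 1 (gap 0.876 of the range), and Ifi27 was at 14.7 CPM in RaptorKO contralateral 4 (gap 0.896 of the range).

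For 3 genes of the list of further interferon-stimulated genes the genotype effect differed between sides in the interaction test. The genotype effect was larger in injured than contralateral nerves by 1.25 on the log2 scale for Gbp5 and by 1.23 for Gbp9 (edgeR adjusted p = 0.00746 for both), under all alternatives tried. For Iigp1 the difference was 1.15 (edgeR adjusted p = 0.0465), and the call was lost under 13 alternatives, among them the replicate block (edgeR adjusted p = 0.0667).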

How the results depend on the processing

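Of 148 recomputed counts of called members, 134 stayed within 1.5 times the reported one. In contralateral nerves the count called higher between genotypes went from 0 to 1 with DESeq2, the exact test or all 13 libraries in 1 fit. It went to 2 with the replicate block, which between genotypes joins different mice. With 1 library left out it ranged from 0 to 1, and the count called lower from 0 to 3. Over all tested genes the counts then ranged from 246 to 598 called higher and from 278 to 820 called lower. With all libraries they were 533 and 675. After injury in RaptorKO the count called lower was 6 with library totals only and ranged from 6 to 12 with 1 library left out. Over all tested genes it was 2835 with library totals only and ranged from 3064 to 3451 with 1 library left out. In the interaction DESeq2 gave 1 higher and 2 lower, and leaving out 1 library gave 0 to 1 lower. Of 1219 recomputed fold changes, 1089 kept their direction and call. Directions turned for values that were not called. In injured nerves between genotypes, with 1 library left out, Irf8 ranged from -0.0788 to 0.15, Oas1a from -0.0342 to 0.58 and Trim25 from -0.0506 to 0.31. In contralateral nerves Rsad2 ranged from -0.15 to 0.32 and Cmpk2 from -0.0314 to 0.16, and Rsad2 was -0.0001 without the count filter. For injury in RaptorKO, Ifit2 was 0.10 with library totals only and ranged from -0.16 to 0.0044. In the interaction Cmpk2 ranged from -0.0371 to 0.19 with 1 library left out and was -0.0383 without both libraries of control 3, an alternative chosen after seeing the data. The causes were not tested. In the injury comparisons and the interaction, the replicate block changed no call of a member other than those of Ifit2 in controls and of Gbp2, Gbp3, Ddx58, Ifitm3 and Trim25 in RaptorKO.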
